A study of Mus musculus with 14 samples.

Results

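The chemokine ligands are the secreted or membrane-bound proteins of the C-C, C-X-C, C and C-X3-C families, and 35 mouse genes of these families, a fixed list of symbols, were looked up in RNA-seq of 14 mammary tumors. All 35 were found among the 56414 genes listed, each in 1 row, and 33 of them had reads in all 14 tumors. The study tested nicotinamide (NAM), a form of vitamin B3, against hormone-driven breast cancer in mice, and asked here which transcripts differed between untreated and NAM-treated tumors. M/D-driven tumors (4 untreated, 4 NAM-treated) arose in female C57Bl/6 mice that received a 50 mg pellet of the progestin medroxyprogesterone acetate (MPA) at 6 to 9 weeks of age and then the carcinogen DMBA by repeated gavage. AT3 tumors (3 untreated, 3 NAM-treated) grew in female C57Bl/6 mice under the skin from injected cells of AT3, a single transplantable mouse mammary carcinoma line. The methods give female sex and an overall range of ages for all mice of the study, with no separate age for these hosts. In both models the mice were randomized once a tumor measured 0.25 cm2, and treated mice drank water with 0.5% NAM for 10 days while untreated mice received no agent.

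Chemokines bind membrane-spanning receptors on leukocytes and draw these cells along a gradient, and they are commonly sorted by the receptor they engage. Most inflammatory chemokines are made on demand, under NF-kappa B or interferon signals, by macrophages, fibroblasts, endothelium and tumor cells alike, whereas others (homeostatic chemokines) are made steadily by the stroma of lymphoid organs or by epithelia. In mammary tumors they are known for bringing in monocytes, neutrophils, T cells and dendritic cells, and in the normal mammary gland CCL28 brings in antibody-secreting cells during lactation.

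Values are normalized counts, i.e. the reads of a gene divided by a size factor of the tumor, and each model was scaled on its own. Between 40936868 and 84178009 reads per tumor were recovered from these values, of which chemokine ligands took 0.071 to 0.251% in M/D-driven tumors and 0.098 to 0.185% in AT3 tumors. Values of a gene are given in order of tumor number throughout. The library labelled NAM-treated M/D tumor 1 stood apart from the 7 others of its model. It alone came from experiment 2. It was the lowest of the 8 for 9 of 9 epithelial markers, with a mean of 9.51 on the log2 scale against 14.4 to 15.3 in the others (11.3 to 12.1 in AT3 tumors), and the highest for 5 of 5 B cell and 5 of 6 precursor B cell markers, including 67823 for *Vpreb1*. For the remaining precursor B cell marker, *Rag1*, it was the lowest, at 475 against 623 to 1337 in the others. It was also the lowest of the 8 for 22 of the 35 chemokine ligands and the highest for 4, and the part of this makeup in the results of M/D-driven tumors was not tested. In bulk tumors, fewer cells of a type and less RNA per cell cannot be told apart.

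In M/D-driven tumors, 3 of the 35 ligands were lower with NAM (*Ccl17*, *Ccl28* and *Cxcl17*) and 0 were higher, against 3.19% and 3.03% of the 21700 genes tested. A gene was called higher or lower when limma, a linear model fitted to log2(normalized count + 1), gave p up to 0.05 before adjustment and the fold change was 1.5 or more. In AT3 tumors, 5 of 33 ligands tested were lower (*Ccl8*, *Ccl25*, *Cxcl15*, *Cxcl17* and *Pf4*) and 0 were higher, against 10.9% and 12.2% of the 19281 genes tested. Most calls came between the models, for all genes as well as for the ligands. Untreated M/D-driven tumors had 11 ligands higher and 5 lower than untreated AT3 tumors, against 29.9% and 26.7% of 21678 genes. With p adjusted over all genes tested (Benjamini-Hochberg), 0 ligands passed 0.05 for NAM in either model by limma, and 9 higher and 3 lower passed between the models, where 27.4% and 23.9% of all genes did.

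**Figure D1:**
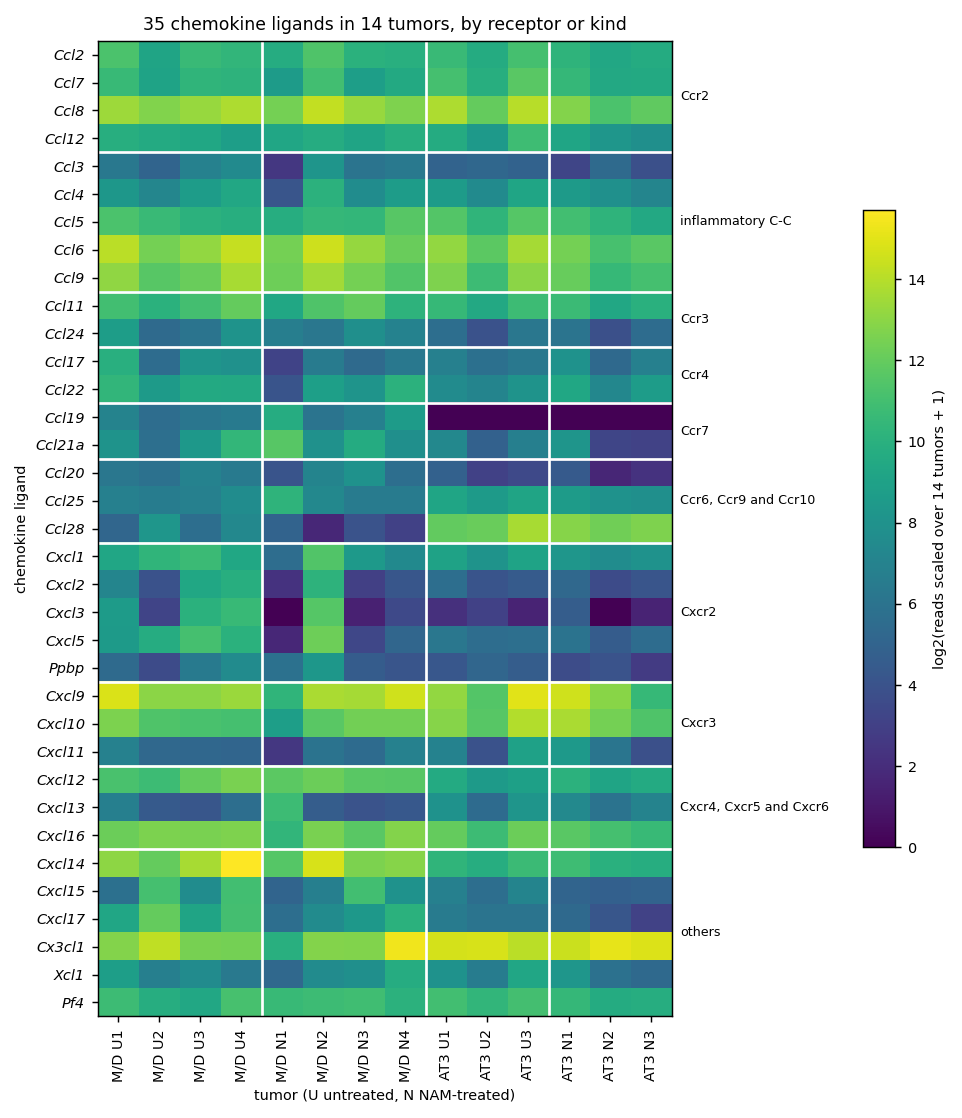
Level of the 35 chemokine ligands (rows, grouped by receptor or kind) in the 14 tumors (columns; U untreated, N NAM-treated), as log2 of the reads scaled over all 14 tumors plus 1, from dark (0) to bright. Ccl19 is dark in all 6 AT3 tumors, Ccl28 is bright in AT3 tumors and dark in most M/D-driven tumors, and M/D N1 is dark in many rows.

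Levels spread widely among the ligands. Per kilobase of transcript, the highest in untreated M/D-driven tumors was *Ccl8*, at a mean of 19792 scaled reads per kilobase, followed by *Cxcl14* (10602), *Ccl6* (8970.1) and *Cxcl9* (4740.4). In untreated AT3 tumors *Ccl8* was again the highest (22563), followed by *Cx3cl1* (7182), *Ccl6* (5669) and *Cxcl9* (5172). Here the reads of the 7 untreated tumors were put on a single scale by the median of ratios, and lengths are of the longest GENCODE transcript. The order is of means, and neighbours in it were not tested against each other. *Ccl28* ranked 34 of 35 in untreated M/D-driven and 9 of 35 in untreated AT3 tumors by deposited values per kilobase. Of the 35 genes, 12 lie on chromosome 5 and 11 on chromosome 11 of mm10, where the C-X-C and C-C families form their gene clusters.

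*Ccl28*, the ligand of CCR10 made by mucosal and mammary epithelium (chromosome 13, 119623816 to 119654356), was the ligand most clearly lower in NAM-treated M/D-driven tumors. Its normalized counts were 38.4, 325, 54.1 and 173 in untreated and 34.0, 2.44, 16.6 and 8.02 in NAM-treated M/D-driven tumors. There was no overlap of the groups, which was so for this 1 ligand in the direction of lower values and 0 in the direction of higher values, against 2.00% and 2.43% of all genes tested. The log2 difference was −3.16 (SE 0.92, limma adjusted p = 0.73), and an exact two-sided permutation test gave p = 0.029, the smallest that 4 against 4 tumors can give. Levels were low, as the NAM-treated tumors held 40, 2, 18 and 10 reads of this gene and the untreated ones 37, 299, 72 and 215. The call held when any 1 of the 8 tumors was left out, with log2 differences of −3.69 (without the library labelled NAM-treated M/D tumor 1) to −2.57. In AT3 tumors *Ccl28* was abundant, at 3181, 3723 and 10606 in untreated and 6045, 4258 and 5719.9 in NAM-treated tumors. These groups overlapped, and the difference of 0.08 (SE 0.42, limma adjusted p = 0.92) did not pass. The effect of NAM differed between the models by −3.24 (SE 1.14, limma adjusted p = 0.25) (M/D-driven minus AT3) in a fit over the 14 tumors. Between untreated tumors, *Ccl28* had a mean of 136 ± 124 (SD, n = 4) scaled reads in M/D-driven and 7092 ± 5076 (SD, n = 3) in AT3 tumors, and a log2 difference of −5.98 (SE 0.76, limma adjusted p = 0.00052).

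The CCR4 ligands *Ccl17* and *Ccl22*, which dendritic cells and macrophages make and which attract regulatory and type 2 helper T cells, flank *Cx3cl1* on chromosome 8. *Ccl17* counts were 1044, 49.98, 319.9 and 269 in untreated and 8.49, 96.2, 46.0 and 85.0 in NAM-treated M/D-driven tumors. Of the 4 untreated tumors, 3 lay above every NAM-treated one, and untreated tumor 2 lay among the treated values. The log2 difference of −2.57 (SE 1.04, limma adjusted p = 0.73) passed the call rule, and the exact permutation test gave p = 0.086. This call was lost when 1 tumor was left out in 5 cases, namely untreated tumor 1 (−1.90), untreated tumor 3 (−2.47), untreated tumor 4 (−2.55), NAM-treated tumor 1 (−1.83) and NAM-treated tumor 3 (−2.60). In AT3 tumors *Ccl17* stood at 91.3, 45.7 and 61.9 without and 211, 34.8 and 98.3 with NAM, a log2 difference of 0.49 (SE 0.61) that did not pass. The difference between the models was −3.06 (SE 1.39, limma adjusted p = 0.33), past the call rule but not past 0.05 once adjusted. *Ccl22* counts were 1394, 409, 824 and 763 in untreated and 17.0, 504, 310.2 and 1209 in NAM-treated M/D-driven tumors. Lowest was the library labelled NAM-treated M/D tumor 1, and the log2 difference of −1.68 (SE 1.17, limma adjusted p = 0.78), or −0.43 without this library, did not pass. In AT3 tumors *Ccl22* values were 151, 112 and 217 in untreated and 549, 134 and 354 in NAM-treated ones, for a log2 difference of 0.94 (SE 0.50) that did not pass as first fitted. It was called higher there with edgeR, DESeq2 and the replicate block. Untreated M/D-driven tumors had more *Ccl22* than untreated AT3 tumors, at means of 770.5 ± 371 (SD, n = 4) and 194 ± 65.9 (SD, n = 3) scaled reads, with a log2 difference of 1.91 (SE 0.42, limma adjusted p = 0.0057).

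The CXCR2 ligands *Cxcl1*, *Cxcl2*, *Cxcl3* and *Cxcl5*, the main attractants of neutrophils in mice, lie near one another on chromosome 5. The promoters of 3 of them are shown because these genes share a sequence. Among M/D-driven tumors, NAM-treated tumor 2 was the highest for 11 of the 35 ligands, these CXCR2 ligands included. Each line gives the bases that end at the base before the start of transcription in RefSeq (GRCm38.p6, plus strand, 5′ to 3′), with matches to the consensus of NF-kappa B sites (kappa B) in capitals, at chr5:90891080-90891244, chr5:90903734-90903898 and chr5:90785936-90786100.
Cxcl1: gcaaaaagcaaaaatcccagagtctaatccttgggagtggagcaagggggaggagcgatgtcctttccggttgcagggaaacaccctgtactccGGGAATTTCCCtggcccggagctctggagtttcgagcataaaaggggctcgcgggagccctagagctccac
Cxcl2: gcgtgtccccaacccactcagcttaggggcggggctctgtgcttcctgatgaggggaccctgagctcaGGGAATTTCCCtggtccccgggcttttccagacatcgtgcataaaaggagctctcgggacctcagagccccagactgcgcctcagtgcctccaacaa
Cxcl3: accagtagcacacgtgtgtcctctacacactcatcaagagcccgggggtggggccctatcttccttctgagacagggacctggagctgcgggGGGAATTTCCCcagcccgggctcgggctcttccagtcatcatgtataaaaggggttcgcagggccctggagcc
The same run of 11 bases, GGGAATTTCCC, began 71, 97 and 73 bases before the start of *Cxcl1*, *Cxcl2* and *Cxcl3*. Promoter windows of 300 bases (250 before the start and 50 after) were found for 25 of the 35 ligands, *Cxcl5* not among them, in 26 windows. A kappa B match on either strand was in 6 of these 26 (23.1%), against 8.46% of all 32851 windows of the same length. An AP-1 match (TGANTCA) was in 5 (19.2%) against 7.81%, an interferon-stimulated response element in 3 (11.5%) against 3.44%, and a gamma-activated site (TTCNNNGAA) in 2 (7.69%) against 8.30%. The 4 motifs were searched apart and matches could overlap. Of ligands with a kappa B match, *Ccl9*, *Ccl20* and *Cxcl10* were highest in other M/D-driven tumors than NAM-treated tumor 2. *Ccl3*, *Ccl6*, *Ccl8* and *Ppbp* were highest in that tumor and had no kappa B match in their windows. A match is a description of letters and was not tested as a site, and its relation to levels was not tested.

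*Cxcl5* counts were 410.3, 910.5, 2315 and 1109 in untreated and 2.55, 5142, 10.1 and 39.3 in NAM-treated M/D-driven tumors. Of the 4 NAM-treated tumors, 3 lay below every untreated one and NAM-treated tumor 2 lay above them all. The same held for *Cxcl1*, with 679, 1339, 1798 and 707 in untreated and 52.6, 2963, 371 and 194 in NAM-treated tumors. *Cxcl3* counts were 422, 8.69, 1141 and 1619 in untreated and 0, 3172, 1.84 and 11.2 in NAM-treated tumors, with untreated tumor 2 among the low values. *Cxcl2* followed *Cxcl3*, at 155, 15.2, 709.7 and 991 without and 4.24, 1224, 7.36 and 19.3 with NAM. The difference did not pass for any of these 4 genes, at −4.21 (SE 2.01, limma adjusted p = 0.74) for *Cxcl5*, the nearest (0.094 with edgeR and 0.13 with DESeq2, and mean counts of 1186 ± 808 (SD, n = 4) without and 1298 ± 2562 (SD, n = 4) with NAM), and log2 differences of −1.66, −2.67 and −4.02 for *Cxcl1*, *Cxcl2* and *Cxcl3*. Without NAM-treated tumor 2 all 4 were called lower, with log2 differences of −6.41 for *Cxcl5*, −2.72 for *Cxcl1*, −4.42 for *Cxcl2* and −6.50 for *Cxcl3*. Leaving out this tumor was among the alternatives, and no label sets it apart from NAM-treated tumors 3 and 4. Without the library labelled NAM-treated M/D tumor 1 the difference of *Cxcl5* was −2.91. With all 14 tumors in 1 fit *Cxcl5* was called lower (−4.21). Neutrophil markers were high in untreated tumors 1, 3 and 4 and NAM-treated tumor 2, where *Cxcl2* and *Cxcl3* were also high. In untreated tumor 2 they were low, whereas its *Cxcl1* and *Cxcl5* lay above those of untreated tumor 1. The mean of the neutrophil markers on the log2 scale over 6 genes was 9.29, 6.25, 11.6 and 11.3 in untreated and 6.77, 11.3, 5.63 and 7.39 in NAM-treated tumors. *S100a8*, which encodes a calcium-binding protein abundant in neutrophils, stood at 4244, 214, 132539 and 71665 in untreated and 295, 91728, 60.8 and 529 in NAM-treated tumors. Whether these cells have a part in the ligand values was not tested. *Ppbp*, a platelet gene whose product is cut to a CXCR2 ligand, reached 340 in NAM-treated tumor 2 and 12.0 to 205 in the 7 others.

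**Figure D2:**
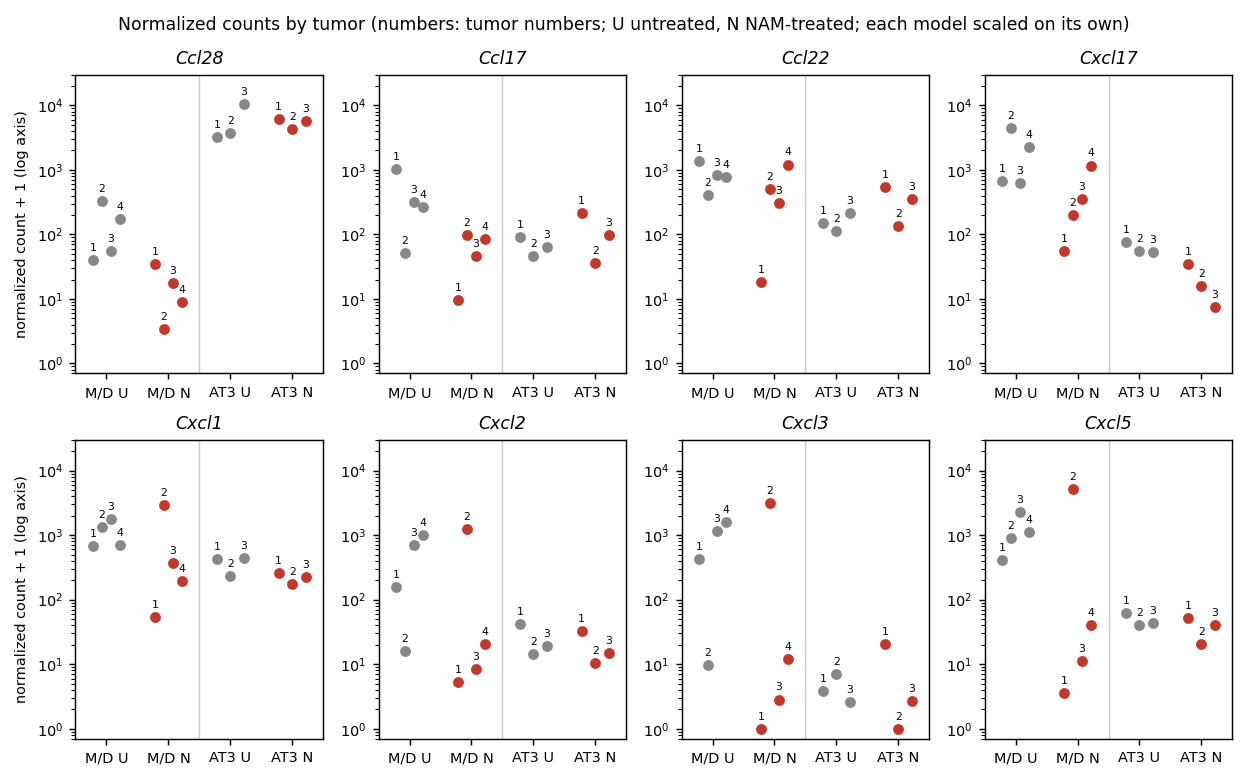
Normalized count plus 1 (log axis) of 8 ligands in each tumor, by group (grey untreated, red NAM-treated; numbers are tumor numbers), with each model on its own scale. For Ccl28 the 4 NAM-treated M/D-driven tumors lie below the 4 untreated ones, and for Cxcl1, Cxcl2, Cxcl3 and Cxcl5 NAM-treated tumor 2 lies above the 3 other NAM-treated tumors.

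In AT3 tumors the CXCR2 ligands were low, and none of those tested passed for NAM as first fitted. With DESeq2, the upper quartile and the replicate block, *Cxcl1* was called lower there. *Cxcl1* stood at 419, 229 and 442 in untreated and 256, 171 and 221 in NAM-treated tumors, and *Cxcl5* at 60.9, 39.6 and 42.3 and 51.0, 19.8 and 39.7. *Cxcl3* values were 2.90, 6.09 and 1.63 in untreated and 19.4, 0 and 1.65 in NAM-treated AT3 tumors, under the minimum for testing. Untreated M/D-driven tumors had more *Cxcl1*, *Cxcl3* and *Cxcl5* than untreated AT3 tumors. For *Cxcl5* the means were 1073 ± 709 (SD, n = 4) and 57.7 ± 14.4 (SD, n = 3) scaled reads, and the log2 difference was 3.97 (SE 0.52, limma adjusted p = 0.00059). The differences of *Cxcl3*, at 5.804 (SE 1.57, limma adjusted p = 0.014), and *Cxcl1*, at 1.16 (SE 0.41, limma adjusted p = 0.040), also passed. The call for *Cxcl1* was lost without untreated AT3 tumor 2 (0.84). For *Cxcl2* the difference of 2.80 (SE 1.27, limma adjusted p = 0.094) did not pass. The receptor gene *Cxcr2* was higher in untreated M/D-driven tumors as well, with a log2 difference of 4.92 (SE 0.95, limma adjusted p = 0.0032). The neutrophil markers, to which *Cxcr2* belongs, had a mean of 5.10 to 5.97 in untreated AT3 tumors, on the scale of that model, and their part in the difference of the ligands was not tested.

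*Cxcl9*, *Cxcl10* and *Cxcl11*, the interferon-induced ligands of CXCR3 on activated T and NK cells, did not pass for NAM in either model. *Cxcl9* counts were 31334, 8771, 8766 and 11162 in untreated and 1327, 14369, 13425 and 27198 in NAM-treated M/D-driven tumors. Its values in AT3 tumors were 7475, 2403 and 26908 without and 20123, 6729 and 1294 with NAM. The groups overlapped in both models, with log2 differences of −0.49 (SE 0.90) in M/D-driven and −0.49 (SE 1.04) in AT3 tumors. *Cxcl10* counts were 6774, 2846, 2563 and 2319 in untreated and 483, 3489, 5731 and 5872 in NAM-treated M/D-driven tumors. In AT3 tumors they were 5932, 2678 and 12092 in untreated and 11262, 4803 and 2262 in NAM-treated tumors. Untreated M/D tumor 1 and untreated AT3 tumor 3 ranked at the top of their untreated groups for both. *Cxcl11* was the scarcest, at 5.09 to 132 across the 14 tumors apart from untreated AT3 tumor 3 (405) and NAM-treated AT3 tumor 1 (288). Between the models, *Cxcl10* was lower in untreated M/D-driven tumors (−1.23 (SE 0.54, limma adjusted p = 0.082)), a call that was lost without untreated M/D-driven tumor 2 (−1.16), untreated M/D-driven tumor 3 (−1.10), untreated M/D-driven tumor 4 (−1.05), untreated AT3 tumor 1 (−1.22) and untreated AT3 tumor 3 (−0.69). The promoter of *Cxcl10* is shown because it alone among the 26 windows held matches to kappa B, AP-1 and the interferon-stimulated response element, the last of which began 213 bases before the start and thus lies outside the bases printed (minus strand, chr5:92348890-92349054). Capitals mark the kappa B matches, 159 and 104 bases before the start, and the AP-1 match TGAGTCA, 74 bases before it.
Cxcl10: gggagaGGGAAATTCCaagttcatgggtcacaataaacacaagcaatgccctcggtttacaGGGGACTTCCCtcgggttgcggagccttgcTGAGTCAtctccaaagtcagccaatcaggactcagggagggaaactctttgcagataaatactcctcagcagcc

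Among the ligands of CCR2, which brings monocytes into tumors, *Ccl8* was called lower in NAM-treated AT3 tumors, and mouse CCL8 is also an agonist of CCR8. *Ccl8* values were 11373, 3381 and 13671 in untreated and 5842, 2099.8 and 3294 in NAM-treated AT3 tumors. Untreated tumor 2 fell among the treated values, so the groups overlapped, and the log2 difference was −1.23 (SE 0.54, limma adjusted p = 0.20). The call was lost without untreated tumor 1 (−0.99), untreated tumor 3 (−0.85), NAM-treated tumor 2 (−0.88) and NAM-treated tumor 3 (−1.20). In M/D-driven tumors *Ccl8* stood at 11644, 7163, 10845 and 14810.5 in untreated and 5864, 21332, 10912 and 7466 in NAM-treated tumors, a log2 difference of −0.10 (SE 0.41) that did not pass. *Ccl2*, *Ccl7* and *Ccl12*, the other CCR2 ligands, ranged from 195 to 2818 across the 14 tumors. Their log2 differences were −0.09, −0.53 and 0.12 in M/D-driven and −0.62, −0.998 and −1.15 in AT3 tumors, and none of these 6 passed as first fitted. In AT3 tumors *Ccl7* and *Ccl12* were called lower with edgeR, DESeq2, the upper quartile, the replicate block and no filter on low values. *Ccl2* was called lower with the replicate block, and *Ccl12* also with all 14 tumors in 1 fit. None of them was called with the trend for transcript length and GC content taken out (described further on).

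The inflammatory C-C ligands *Ccl3*, *Ccl4*, *Ccl5*, *Ccl6* and *Ccl9*, which attract monocytes, neutrophils and effector T cells, were not called for NAM in either model as first fitted. *Ccl6*, the most abundant of them, had counts of 18806, 5754, 9968 and 22231 in untreated and 5910.4, 24498, 10546 and 4976 in NAM-treated M/D-driven tumors. In AT3 tumors *Ccl6* stood at 7324, 2838 and 9973 without and 4621, 1935 and 2893 with NAM. The groups overlapped in both models, with log2 differences of −0.41 (SE 0.59) and −1.001 (SE 0.47). In AT3 tumors *Ccl6* was called lower with edgeR, DESeq2, the upper quartile, the replicate block and no filter on low values. *Ccl5* was called lower there with the upper quartile and the replicate block, and *Ccl9* with the replicate block. *Ccl3*, made by activated macrophages, stood at 84.1, 34.8, 128 and 197 in untreated and 5.09, 303, 70.9 and 90.7 in NAM-treated M/D-driven tumors, and at 24.6, 30.5 and 24.4 in untreated and 7.29, 35.7 and 11.6 in NAM-treated AT3 tumors. Untreated M/D-driven tumors had more *Ccl3* than untreated AT3 tumors, with a log2 difference of 1.38 (SE 0.58, limma adjusted p = 0.076). That call was lost in 6 of 7 cases when 1 tumor was left out, namely untreated M/D-driven tumor 1 (1.44), untreated M/D-driven tumor 3 (1.24), untreated M/D-driven tumor 4 (1.03), untreated AT3 tumor 1 (1.32), untreated AT3 tumor 2 (1.47) and untreated AT3 tumor 3 (1.33). *Ccl4*, *Ccl5* and *Ccl9* gave log2 differences for NAM of −0.75, 0.14 and −0.21 in M/D-driven and −0.56, −0.84 and −0.87 in AT3 tumors. The eotaxins *Ccl11* and *Ccl24*, ligands of CCR3 on eosinophils, passed in no comparison as fitted, whereas with the trend for transcript length and GC content taken out (described further on) *Ccl11* was called higher with NAM in AT3 tumors (0.62) and higher in untreated M/D-driven than in untreated AT3 tumors (1.19). *Ccl11* counts were 2130.4, 1098, 2230.3 and 4424 in untreated and 710.5, 2777, 4405 and 1269.9 in NAM-treated M/D-driven tumors, and 1191, 612 and 1429 in untreated and 1354, 589.9 and 859 in NAM-treated AT3 tumors.

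The CCR7 ligands *Ccl19* and *Ccl21a* guide naive T cells and mature dendritic cells into lymph nodes, and *Ccl19* separated the models. It had no read in any of the 6 AT3 tumors, whereas its counts were 140.2, 51.1, 77.3 and 90.9 in untreated and 920.1, 69.4, 122 and 450.0 in NAM-treated M/D-driven tumors. A floor of 3 reads per library corresponds to a mean of 3.97 scaled reads in untreated AT3 tumors, so that *Ccl19*, at 81.8 ± 34.1 (SD, n = 4) scaled reads, was at least 20.6-fold higher in untreated M/D-driven tumors. The difference for NAM of 1.52 (SE 0.80, limma adjusted p = 0.74) in M/D-driven tumors did not pass, and its highest value was in the library labelled NAM-treated M/D tumor 1. Without this library it was 0.88, and without NAM-treated tumor 2 it was 2.12 and was called higher. *Ccl21a* stood at 289.8, 56.5, 357 and 1477 in untreated and 3375, 258, 882 and 251 in NAM-treated M/D-driven tumors, again with the highest value in that library. In AT3 tumors *Ccl21a* was at 128, 23.4 and 89.5 without and 236, 7.53 and 6.61 with NAM. Both genes have near-identical copies in the mouse genome between which reads could have been split, so that their levels are uncertain.

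*Ccl20* and *Ccl25* act on CCR6 and CCR9, receptors of mucosal and thymic lymphocytes. *Ccl25* was lower with NAM in AT3 tumors, at 321, 218 and 192 against 484, 312 and 458. The groups overlapped in 1 value, untreated tumor 2 against NAM-treated tumor 1, and the log2 difference was −0.78 (SE 0.30, limma adjusted p = 0.18). The call was lost without untreated tumor 1 (−0.67), untreated tumor 3 (−0.70), NAM-treated tumor 2 (−0.72) and NAM-treated tumor 3 (−0.63). In M/D-driven tumors *Ccl25* values were 125, 103, 125 and 209 in untreated and 1293, 168, 100.3 and 102 in NAM-treated tumors, where the highest value was that of the library rich in B cell genes and the log2 difference of 0.68 (SE 0.80) did not pass. *Ccl20* counts were 80.0, 61.9, 134 and 90.1 in untreated and 17.0, 146, 284 and 55.4 in NAM-treated M/D-driven tumors, and 23.2, 6.09 and 8.14 in untreated and 17.0, 1.88 and 3.30 in NAM-treated AT3 tumors. Between untreated tumors the models differed in opposite directions, with log2 differences of 2.55 (SE 0.56, limma adjusted p = 0.0058) for *Ccl20* and −2.002 (SE 0.33, limma adjusted p = 0.0017) for *Ccl25* (M/D-driven minus AT3).

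*Cxcl12*, the CXCR4 ligand of fibroblasts and vessels, was higher in untreated M/D-driven than in untreated AT3 tumors. Its counts were 2537, 1852, 4516 and 6370.3 in untreated and 3694, 4960.1, 3645 and 3575 in NAM-treated M/D-driven tumors, and 625, 322 and 386 in untreated and 889, 504 and 663 in NAM-treated AT3 tumors. On the common scale the log2 difference between the models was 2.59 (SE 0.43, limma adjusted p = 0.0016). The fibroblast markers had a mean of 12.1 to 14.1 on the log2 scale in untreated M/D-driven and 11.1 to 11.9 in untreated AT3 tumors, each on the scale of its own model, and their part in this difference was not tested. For NAM the difference was 0.21 (SE 0.38) in M/D-driven and 0.65 (SE 0.32) in AT3 tumors, and neither passed as first fitted. With the replicate block *Cxcl12* was called higher in AT3 tumors. *Cxcl16*, the membrane-bound ligand of CXCR6, stood at 4962, 6747, 6611 and 7085 in untreated and 1377, 6249.7, 3646 and 7815 in NAM-treated M/D-driven tumors, and at 3329, 1451 and 3687 in untreated and 2746, 1852 and 1318 in NAM-treated AT3 tumors. It was higher in untreated M/D-driven tumors (0.86 (SE 0.33, limma adjusted p = 0.055)), a call lost without untreated M/D-driven tumor 3 (0.85), untreated M/D-driven tumor 4 (0.81) and untreated AT3 tumor 2 (0.42). *Cxcl13*, which draws B cells into follicles through CXCR5, had counts of 120.5, 21.7, 18.8 and 53.1 in untreated and 1849, 25.6, 16.6 and 21.7 in NAM-treated M/D-driven tumors. Its value in the library labelled NAM-treated M/D tumor 1, the one rich in B cell genes, exceeded the 7 others, which were at 16.6 to 120. In AT3 tumors *Cxcl13* stood at 209, 36.6 and 238 without and 136, 52.7 and 112 with NAM. Between untreated tumors it was lower in M/D-driven ones (−1.98 (SE 0.84, limma adjusted p = 0.078)), a call lost without untreated M/D-driven tumor 2 (−1.68), untreated M/D-driven tumor 3 (−1.61), untreated M/D-driven tumor 4 (−2.09), untreated AT3 tumor 1 (−1.61) and untreated AT3 tumor 3 (−1.49).

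*Cxcl17*, a chemokine of mucosal epithelia (chromosome 7, 25400053 to 25412886), was called lower with NAM in both models. Its counts were 668, 4406, 627 and 2228 in untreated and 53.5, 197, 357 and 1167 in NAM-treated M/D-driven tumors. NAM-treated tumor 4 lay within the untreated range and the 3 others below it, for a log2 difference of −2.46 (SE 0.99, limma adjusted p = 0.73) and an exact permutation p of 0.086. The call was lost without untreated tumor 2 (−1.92), untreated tumor 4 (−2.24), NAM-treated tumor 1 (−1.71), NAM-treated tumor 2 (−2.33) and NAM-treated tumor 3 (−2.61). In AT3 tumors *Cxcl17* stood at 75.4, 53.8 and 52.9 in untreated and 34.0, 15.1 and 6.61 in NAM-treated tumors, with no overlap, a log2 difference of −1.91 (SE 0.59, limma adjusted p = 0.17) and an exact permutation p of 0.10, the smallest that 3 against 3 tumors can give. Levels were low there, at 52, 53 and 65 reads in untreated and 28, 16 and 8 in NAM-treated tumors. The effects of NAM on *Cxcl17* were not shown to differ between the models, with an interaction of −0.55 (SE 1.30, limma adjusted p = 0.86). *Cxcl15*, a chemokine of lung and other epithelia with an unknown receptor, was also lower in NAM-treated AT3 tumors, at 26.7, 23.5 and 26.4 against 89.9, 42.6 and 107 in untreated ones. These groups did not overlap either, and the log2 difference was −1.51 (SE 0.45, limma adjusted p = 0.17). The untreated AT3 tumors held 62, 42 and 132 reads of *Cxcl15* and the NAM-treated ones 22, 25 and 32. No overlap in the direction of lower values was found for 3 of 33 ligands in AT3 tumors (*Cxcl15*, *Cxcl17* and *Ppbp*) and for 0 in the direction of higher values, against 11.0% and 11.7% of all genes tested. The calls of *Cxcl15* and *Cxcl17* held when any 1 of the 6 AT3 tumors was left out, with log2 differences of −1.90 to −1.25 and −2.46 to −1.36. With the spread estimated over all 14 tumors in 1 fit, neither was called in AT3 tumors, and the call of *Cxcl17* in M/D-driven tumors was lost with edgeR (−2.20) and with the trend for length and GC content taken out (−2.32). Epithelial markers had a mean on the log2 scale of 12.1, 11.8 and 11.6 in untreated and 11.4, 11.6 and 11.3 in NAM-treated AT3 tumors, and their part in these differences was not tested. In M/D-driven tumors *Cxcl15* varied widely, at 58.2, 2253, 216 and 2137 in untreated and 34.8, 116, 2143 and 294 in NAM-treated tumors, and its difference of −1.14 (SE 1.53) did not pass.

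*Pf4*, the platelet chemokine also made by macrophages, was lower in NAM-treated AT3 tumors, at 1179.8, 699.9 and 771 against 1591, 1109 and 1658 in untreated ones. The values of untreated tumor 2 and NAM-treated tumor 1 crossed, and the log2 difference was −0.73 (SE 0.28, limma adjusted p = 0.18). The call was lost without untreated tumor 1 (−0.66), untreated tumor 3 (−0.63), NAM-treated tumor 2 (−0.58) and NAM-treated tumor 3 (−0.65). In M/D-driven tumors *Pf4* stood at 1863, 922, 761 and 2425 without and 1621, 1828, 2095 and 1213 with NAM. *Cxcl14*, a chemokine of skin and glandular epithelia, had counts of 9119.9, 4325, 14168 and 57646 in untreated and 3251, 29870.0, 6771 and 8366 in NAM-treated M/D-driven tumors, and of 988, 737 and 1359 in untreated and 1481, 852 and 775 in NAM-treated AT3 tumors. The difference for NAM did not pass in either model, whereas untreated M/D-driven tumors exceeded untreated AT3 tumors, with a log2 difference of 3.34 (SE 0.73, limma adjusted p = 0.0057). *Cxcl17* was higher in untreated M/D-driven tumors too, with a log2 difference of 4.14 (SE 0.67, limma adjusted p = 0.0014). *Cx3cl1*, the tethered ligand of CX3CR1 on monocytes and cytotoxic lymphocytes, counted 7815, 20269.8, 6342 and 5899 in untreated and 1014, 7504, 7487 and 47574 in NAM-treated M/D-driven tumors, and 21747, 23499.6 and 13763 in untreated and 18402, 31214 and 26198 in NAM-treated AT3 tumors. It was lower in untreated M/D-driven than in untreated AT3 tumors, with a log2 difference of −1.54 (SE 0.44, limma adjusted p = 0.017). *Xcl1*, made by NK and CD8 T cells to attract XCR1-bearing dendritic cells, passed in no comparison as first fitted, with log2 differences for NAM of 0.26 (SE 0.93) in M/D-driven and −1.42 (SE 0.81) in AT3 tumors. With the replicate block it was called lower in AT3 tumors.

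**Figure D3:**
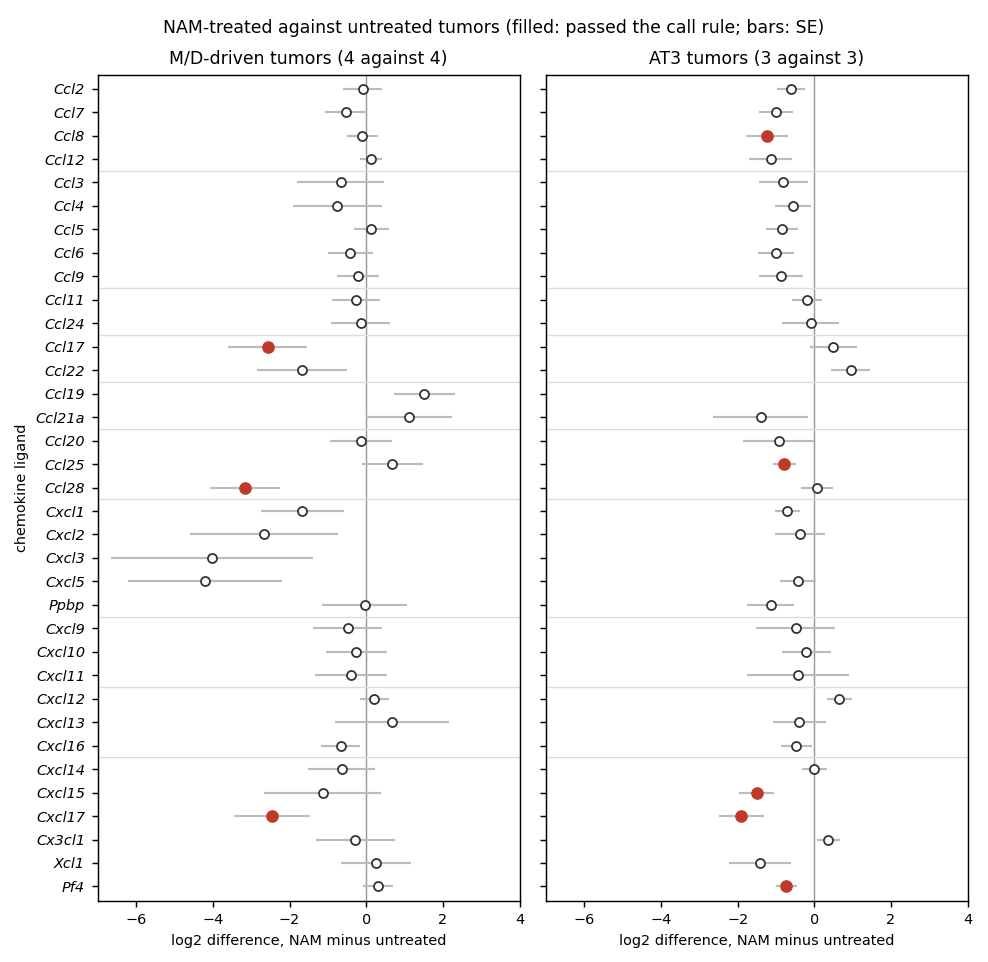
Log2 difference between NAM-treated and untreated tumors for each chemokine ligand, as limma estimates (points) with their standard errors (bars), in M/D-driven (left) and AT3 tumors (right); filled points passed the call rule. Filled points are Ccl17, Ccl28 and Cxcl17 on the left and Ccl8, Ccl25, Cxcl15, Cxcl17 and Pf4 on the right, where Ccl19 and Cxcl3 were not tested.

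As a list, the ligands leaned to lower values with NAM in M/D-driven tumors. The log2 difference was below 0 for 26 of 35, with a median of −0.28 against 0.01 over all genes tested. Single tumors moved this lean. Without the library labelled NAM-treated M/D tumor 1, which also leaves experiment 1 only, 18 of 35 were below 0, the median was −0.07, and 1 ligand (*Ccl28*) was called lower, against 2.33% of all genes. Without NAM-treated tumor 2, 7 were called lower (*Ccl7*, *Ccl17*, *Ccl28*, *Cxcl1*, *Cxcl2*, *Cxcl3* and *Cxcl5*) and 1 higher (*Ccl19*), with a median of −0.64, against 6.92% and 5.5% of all genes in that fit. Without untreated tumor 4 or NAM-treated tumor 3, 1 was called lower (*Ccl28*), against 1.62% and 2.72% of all genes. Tests on the recovered reads placed the ligands about evenly, with a median of −0.0028 for the edgeR quasi-likelihood test and 0.03 for DESeq2. At an adjusted p of 0.05, DESeq2 called 1 ligand (*Ccl28*), where 179 of 21700 genes passed.

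In AT3 tumors 28 of 33 ligands tested had a log2 difference below 0, with a median of −0.62 against −0.05 over all genes. Differences between NAM-treated and untreated AT3 tumors increased with transcript length, at a Spearman correlation of 0.59 across 16429 genes, which are not independent replicates. Chemokine transcripts are short, with a median of 1417 bases against 3134 for all genes tested. With a smooth trend for length and GC content taken out of each tumor, 17 of 33 ligands were below 0 and the median was −0.08. *Cxcl15* (−1.03) and *Cxcl17* (−1.20) were still called lower, *Ccl8* (−0.34), *Ccl25* (−0.37) and *Pf4* (0.07) were not, and *Ccl11* (0.62), *Ccl17* (1.30) and *Ccl22* (1.13) were called higher. In that fit 7.93% of all genes were lower and 7.91% higher. The source of the trend was not tested. In M/D-driven tumors the correlation with length was −0.04 across 18460 genes. It was −0.37 across 18923 genes for the interaction of NAM and model and 0.32 across 18197 genes for untreated M/D-driven against untreated AT3 tumors. Single AT3 tumors also moved the count, which was 16 lower without untreated tumor 2 and 12 lower without NAM-treated tumor 1, where 17.5% and 15.3% of all genes were lower. In these fits 6 and 3 ligands passed an adjusted p of 0.05, where 2520 of 18933 and 2498 of 19301 genes did. With DESeq2 1 ligand (*Cxcl15*) passed, where 2047 of 19281 genes did. The count was 2 lower without untreated tumor 1, untreated tumor 3, NAM-treated tumor 2 or NAM-treated tumor 3, where 3.69 to 6.07% of all genes were lower. Higher calls appeared for 3 ligands without NAM-treated tumor 2 (*Ccl17*, *Ccl22* and *Cxcl12*), against 5.06% of all genes. They appeared for 1 without untreated tumor 1 (*Cxcl12*) and for 1 without untreated tumor 3 (*Ccl28*), against 6.47% and 7.34%. With all 14 tumors in 1 fit, *Ccl25*, *Cxcl15*, *Cxcl17* and *Pf4* were no longer called, and *Ccl8* was not called with TMM factors or a minimum mean of 50.

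**Figure D4:**
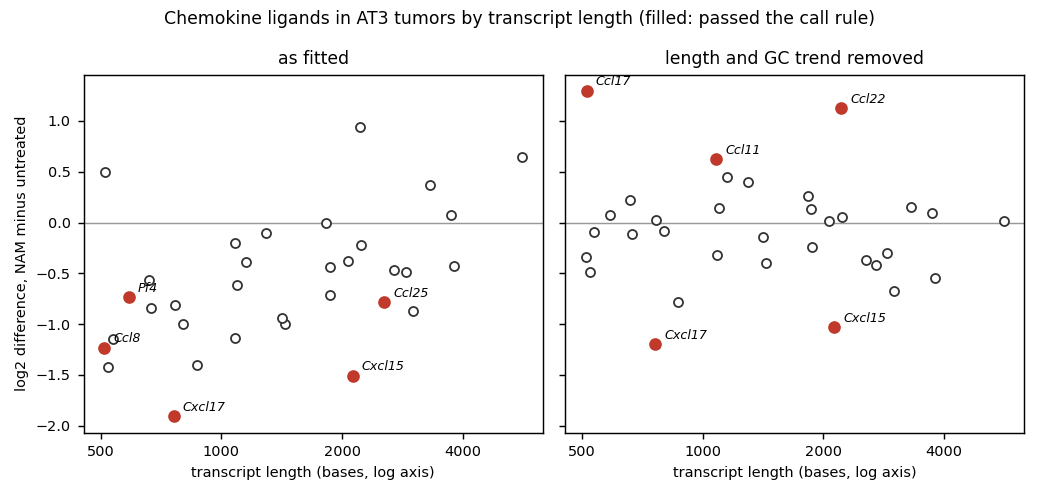
Log2 difference between NAM-treated and untreated AT3 tumors of the 33 ligands tested (vertical) against transcript length in bases (horizontal, log axis), as fitted (left) and after removal of each tumor's trend with length and GC content (right); filled points passed the call rule. On the left most short transcripts lie below 0, and on the right Cxcl15 and Cxcl17 stay low while Ccl11, Ccl17 and Ccl22 are filled above 0.

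The interaction term between NAM and the model was called for 2 of 35 ligands, *Ccl17* and *Ccl28*, both lower in M/D-driven than in AT3 tumors, and for 0 in the other direction, against 7.90% and 6.97% of 22710 genes. The median over the ligands was 0.02, against 0.04 over all genes, but 0.55 with edgeR and 0.63 with DESeq2 (0.17 and 0.26 over all genes), where 26 of 35 were above 0, and 0.77 without untreated AT3 tumor 2. *Ccl17* was not called with the upper quartile. The call of *Ccl28* held without any 1 of the 14 tumors (−3.78 to −2.65), whereas that of *Ccl17* was lost without untreated M/D-driven tumor 1 (−2.39), untreated M/D-driven tumor 3 (−2.96), untreated M/D-driven tumor 4 (−3.04), NAM-treated M/D-driven tumor 1 (−2.32), NAM-treated M/D-driven tumor 3 (−3.09), untreated AT3 tumor 1 (−3.32), untreated AT3 tumor 2 (−2.83), untreated AT3 tumor 3 (−3.04), NAM-treated AT3 tumor 1 (−2.45) and NAM-treated AT3 tumor 3 (−3.00). Without NAM-treated M/D tumor 2, 6 were called lower, among them *Cxcl1*, *Cxcl2*, *Cxcl3* and *Cxcl5*, and 1 higher (*Ccl19*), against 9.57% and 7.09% of all genes. Without NAM-treated AT3 tumor 1, 3 were called higher (*Ccl12*, *Ccl21a* and *Pf4*), against 9.3% of all genes.

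Between untreated tumors of the models, the median log2 difference of the ligands was 0.70 (M/D-driven minus AT3), unchanged to 2 decimals with *Ccl19* at its bound, against 0.03 over all genes. The 11 higher ligands were *Ccl3*, *Ccl22*, *Ccl19*, *Ccl20*, *Cxcl1*, *Cxcl3*, *Cxcl5*, *Cxcl12*, *Cxcl16*, *Cxcl14* and *Cxcl17*, and the 5 lower ones *Ccl25*, *Ccl28*, *Cxcl10*, *Cxcl13* and *Cx3cl1*. Values did not overlap between the models for 10 higher and 2 lower ligands (*Ccl25* and *Ccl28*), against 27.9% and 26.1% of all genes. With the deposited values, where each model was scaled on its own and the median of all genes was 0.48, 15 were higher and 3 lower, against 39.2% and 17.8% of all genes. With the upper quartile, where this median was −0.50, 8 were higher and 8 lower, against 21.3% and 38.2%. Without untreated M/D tumor 2, 17 were higher and 3 lower, against 31.6% and 26.7%. Also 3 were lower without untreated M/D tumor 3 or 4 or untreated AT3 tumor 1 or 3, against 23.5 to 25.1%. Without untreated AT3 tumor 2, 8 were higher and 8 lower, against 30% and 26.5%. With the trend for length and GC content taken out, the calls of *Cxcl13* (−1.42) and *Cxcl16* (0.51) were lost, *Ccl11*, *Ccl17* and *Cxcl2* were called higher, and the difference of *Cxcl12* was 1.44 instead of 2.59. In that fit 13 ligands were higher and 4 lower, against 21.8% and 35.9% of all genes. With all 14 tumors in 1 fit, *Ccl3*, *Ccl22*, *Cxcl1*, *Cxcl10*, *Cxcl13*, *Cxcl16* and *Cx3cl1* were no longer called. *Cxcl10* was not called with TMM factors, edgeR, a minimum mean of 50 or the deposited values, *Cxcl13* not with TMM factors or the deposited values, and *Ccl3*, *Cxcl1* and *Cxcl16* not with the upper quartile. Tumor model, site of growth, host and experiment number cannot be told apart in this contrast.

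**Figure D5:**
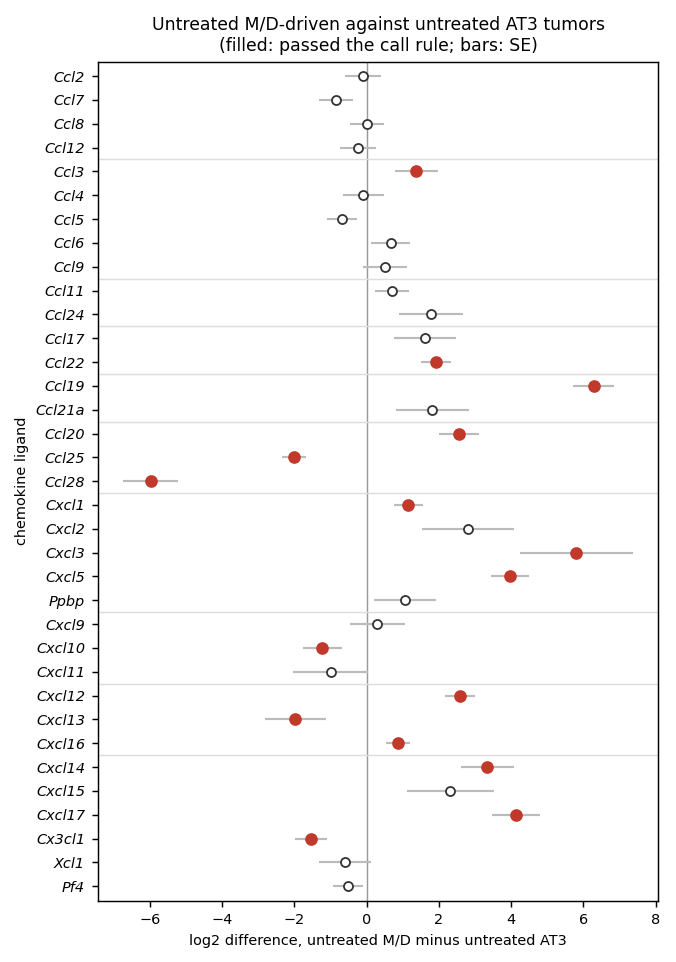
Log2 difference between untreated M/D-driven and untreated AT3 tumors for the 35 chemokine ligands, as limma estimates (points) with standard errors (bars); filled points passed the call rule. Ccl19, Cxcl3, Cxcl17 and Cxcl5 lie farthest to the right and Ccl28 farthest to the left; the value of Ccl19 is fitted against tumors without a read.

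Receptors and inducers of chemokines are given as counts, beside the shares of all genes named above. Of 18 chemokine receptors, 0 of 18 tested passed in M/D-driven tumors (median log2 difference −0.39), where 3.03% of all genes were higher and 3.19% lower, and 2 of 15 tested were higher in AT3 tumors (median 0.21), where 12.2% of all genes were. These were *Ccr2*, at 0.82 (SE 0.30, limma adjusted p = 0.17), and *Cx3cr1*, at 1.08 (SE 0.40, limma adjusted p = 0.17), and neither was called after the trend for length and GC content was taken out. With that trend out, *Ccr8* was called higher in AT3 tumors, against 7.91% of all genes. *Cxcr4* was then called higher in M/D-driven tumors, against 2.43%. Of 5 atypical receptors, which bind chemokines without signaling for migration, *Ackr3*, a scavenger of CXCL12, was lower in M/D-driven tumors (log2 difference −1.55, SE 0.59, limma adjusted p = 0.73) and 0 passed in AT3 tumors. With the length and GC trend out, *Ackr1* was called higher in AT3 tumors. Of 16 genes that induce chemokines, such as interferons, interleukins and NF-kappa B subunits, 0 of 14 tested passed in M/D-driven tumors and 1 of 15, *Ifnb1*, which encodes interferon beta, was lower in AT3 tumors (−2.48, SE 0.56, limma adjusted p = 0.17), where 10.9% of all genes were. Between untreated models, 13 receptors were higher and 1 lower in M/D-driven than in AT3 tumors (median 1.75), as were 5 of 5 atypical receptors (median 2.26), and 8 inducers were higher and 1 lower (median 0.92), against 29.9% and 26.7% of all genes. With the trend for length and GC content taken out, 11 receptors were higher and 1 lower, 3 atypical receptors were higher, and 4 inducers were higher and 3 lower (median 0.43). In that fit 21.8% of all genes were higher and 35.9% lower. Among receptors, the 1 lower was *Cxcr4* (−1.94, SE 0.26), whose ligand *Cxcl12* was higher, and *Cxcr2* (4.92, SE 0.95) and *Ccr4* (4.41, SE 0.94) were the farthest in the other direction.

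Finally, 8 ligands were each set against the marker list of 1 cell type across the tumors of a model, on the log2 scale with exact permutation tests and p adjusted over the 8 pairs. Across the 8 M/D-driven tumors, *Cx3cl1* decreased as endothelial markers increased (Pearson r = −0.83, p = 0.021, adjusted 0.055; Spearman rho = −0.90, p = 0.0046, adjusted 0.037). The coefficient r was −0.62 without the 2 tumors farthest from the median of the list and −0.63 within the 7 tumors of experiment 1. In the 6 AT3 tumors this pair had the opposite sign (r = 0.74, permutation p = 0.097, adjusted 0.26; rho = 0.66, permutation p = 0.17, adjusted 0.47), and the difference between the models was not tested. *Ccl21a* increased with markers of lymph node vessels by a permutation test (r = 0.80, p = 0.015, adjusted 0.055; rho = 0.86, p = 0.011, adjusted 0.043), and r was 0.74 without the 2 farthest tumors and 0.69 within experiment 1. For *Cxcl5* and neutrophil markers, r was 0.77 (permutation p = 0.036, adjusted 0.073) and rho was 0.79 (permutation p = 0.028, adjusted 0.074), with r = 0.60 without the 2 farthest tumors and 0.78 within experiment 1. *Cxcl13* and B cell markers gave r = 0.96 (permutation p = 0.0079, adjusted 0.055) but rho = 0.57 (permutation p = 0.15, adjusted 0.20), and r was 0.11 without untreated tumor 1 and the library labelled NAM-treated M/D tumor 1, so that this relation rests on those tumors (r = 0.77 within experiment 1, which holds untreated tumor 1). Experiment 2 holds 1 tumor and gives no value. Untreated and NAM-treated tumors were pooled in these relations. For the 4 other pairs in M/D-driven tumors and all 8 pairs in the 6 AT3 tumors, adjusted permutation p values were 0.083 or above, and the 2 closest in AT3 tumors were *Cxcl9* with T cell markers (r = 0.92, p = 0.021) and *Cxcl5* with neutrophil markers (r = 0.81, p = 0.021).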

How the data were processed

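RNA-seq of mRNA was carried out in paired-end mode on 14 tumors, with 1 library each, and tumors of a group were separate tumors. The authors mapped reads with STAR (2.4.0 in the submitters' processing notes) on mm10, counted those in the constitutive parts of genes of Mouse FAST DB, and divided the counts by DESeq2 size factors for each model apart. The deposited values are therefore a normalized signal (normalized counts) of 56414 genes, including genes that their filter for expression would drop. Whether counting used strand is not given in the sources used here. Of these genes 30657 carry no symbol and 639 carry joined symbols, and all 14 columns were matched to a tumor by name (0 were left over).

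In each tumor every value was a whole number of steps of 1 size (100% within 0.01), and division by it gave back the reads. Errors are the spread between tumors. Genes whose mean reached 10 in a group compared were tested with limma 3.58.1 in R 4.3.3 (trend, empirical Bayes) on log2(normalized count + 1), which makes changes of genes with few reads look smaller. Calls used the thresholds in the study's methods (p up to 0.05, applied here without adjustment, and 1.5-fold or more), and p was also adjusted by Benjamini-Hochberg over every gene in the fit. For the contrast of untreated models, recovered reads were put on a common scale by the median of ratios. Fits were tested on simulated data.

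The 35 ligands, the other lists, the tests and the alternatives were chosen with earlier results of these data known. Values in every tumor are given for ligands called in any comparison and for the ligand of highest mean in each receptor group, and for the others ranges and counts. *Cxcl2*, single marker genes and differences of uncalled ligands were added after their values were seen. Alternatives used edgeR 4.0.16 and DESeq2 1.42.0 on the recovered reads, other scalings, filters and pseudocounts, a replicate block, removal of a trend with transcript length and GC content, and single tumors left out. Lengths are of the longest GENCODE transcript on GRCm38, matched by symbol or else by position with a reciprocal overlap of at least 0.5, and promoters are from RefSeq. Exact permutation tests and plots used Python 3.11.15 with pandas 2.3.3, scipy 1.17.1 and matplotlib 3.10.9.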

Additional observations from a re-analysis of the deposited data

Results flagged for a closer look

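In the 70 groups of 4 M/D-driven tumors (35 ligands, untreated or NAM-treated), 15 values lay farther from the rest of their group than a Dixon test at the 95% level allows. The nominal rate of 5% holds for normally distributed values, whereas the test was run on counts without a log. The groups also share the same tumors. No rate over all genes was computed, so these 15 values are a description and are not set against chance. NAM-treated tumor 2 accounted for 7 of them, with 2818 for *Ccl2*, 2963 for *Cxcl1*, 1224 for *Cxcl2*, 3172 for *Cxcl3*, 5142 for *Cxcl5*, 340 for *Ppbp* and 4960.1 for *Cxcl12*. The library labelled NAM-treated M/D tumor 1 was far above its group for *Ccl25* (1293) and *Cxcl13* (1849). Untreated tumor 1 was far above its group for the CXCR3 ligands *Cxcl9* (31334), *Cxcl10* (6774) and *Cxcl11* (127). The remaining values were *Cxcl15* in NAM-treated tumor 3 (2143) and *Cx3cl1* in untreated tumor 2 (20269.8) and NAM-treated tumor 4 (47574). AT3 groups of 3 were not examined in this way.

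The effect of NAM differed between M/D-driven and AT3 tumors, by the interaction term at an unadjusted limma p, for *Ccl17* (log2 difference of effects −3.06) and *Ccl28* (−3.24), and for neither at an adjusted p of 0.05 (limma, 0.33 and 0.25).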

How the results depend on the processing

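For NAM in M/D-driven tumors, the count of higher ligands (0) became 1 with edgeR, DESeq2, the replicate block and all 14 tumors in 1 fit (0 to 1 with single tumors left out), and that of lower ligands (3) became 1 within experiment 1 (1 to 7 with single tumors left out). Of all genes, 4.57%, 5.93%, 2.21% and 4.26% were higher in these fits, and 2.33% were lower within experiment 1. In AT3 tumors, higher ligands (0) became 1 with edgeR or DESeq2, 2 with the replicate block and 3 without the length and GC trend (0 to 3 with single tumors left out). Of all genes, 13%, 13.7%, 14% and 7.91% were higher in these fits. Lower ligands there (5) became 8 without a filter on low values, 10 with the upper quartile, under which the median of all genes was −0.26, 8 with edgeR, 9 with DESeq2, 13 with the replicate block, 2 without the length and GC trend and 2 with all 14 tumors in 1 fit (2 to 16 with single tumors left out). Of all genes, 7.59% were lower without a filter, 18.1% with the upper quartile, 11.1% with edgeR and 12.5% with DESeq2. The share was 12.3% with the replicate block, 7.93% without the trend and 8.05% with all 14 tumors in 1 fit. For the difference between models in the effect of NAM, higher ligands (0) became 2 with the upper quartile (median of all genes 0.39) and 1 with DESeq2 (0 to 3 with single tumors left out), and lower ligands (2) became 1 with the upper quartile and 1 with the replicate block (1 to 6 with single tumors left out). Of all genes, 14% and 10.8% were higher, and 4.07% and 7.05% lower, in these fits. Between untreated models, higher ligands (11) became 16 with edgeR or DESeq2, 15 with the values as deposited and 13 without the length and GC trend. They became 8 with the upper quartile and 7 with all 14 tumors in 1 fit (8 to 17 with single tumors left out). Of all genes, 31.2% (edgeR), 30.7% (DESeq2), 39.2%, 21.8%, 21.3% and 27.8% were higher in these fits. Lower ligands (5) became 3 with TMM factors, 8 with the upper quartile, 2 with all 14 tumors in 1 fit and 3 with the values as deposited (3 to 8 with single tumors left out). Of all genes, 24%, 38.2%, 25.6% and 17.8% were lower in these fits. Over all genes, the 658 higher and 692 lower in M/D-driven tumors became 992 and 645 with edgeR, 1287 and 805 with DESeq2, 1219 higher without a filter, 312 higher with a minimum of 50 and 1207 lower with all 14 tumors in 1 fit (395 to 1201 higher and 351 to 1511 lower with single tumors left out). The 2358 and 2100 in AT3 tumors became 2512 and 2147 with edgeR, 2634 and 2415 with DESeq2, 1459 and 3492 with the upper quartile and 1300 and 1303 without the length and GC trend (904 to 3459 and 714 to 3310 with single tumors left out). The 1582 and 1795 of the interaction became 3230 and 942 with the upper quartile, 2462 higher with DESeq2 and 947 lower without the length and GC trend (873 to 2242 and 965 to 2461 with single tumors left out), and between models 6484 higher became 3973 without that trend and 5780 lower became 3827 with the values as deposited.

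Among 31 differences of single ligands followed under each alternative, signs were reversed for *Cxcl5* in M/D-driven tumors with edgeR (0.094) and DESeq2 (0.13), against −4.21 with limma, for *Pf4* in AT3 tumors without the length and GC trend (0.070), and for *Ccl17* in AT3 tumors without NAM-treated tumor 1, with a range of −0.12 to 1.17 over single tumors left out. The causes were not tested beyond what each alternative changes by construction. The other values of these 31 kept their direction, and 489 kept their side of the call rule, 88 lost the call and 10 gained it. Over all ligands tested, in every comparison and alternative (2759 values), 2329 kept direction and side, 88 lost and 116 gained the call with the sign kept, and 226 changed sign, among them 11 of 33 in AT3 tumors without the length and GC trend and, of 35 in M/D-driven tumors, 8 with edgeR, 10 with DESeq2 and 12 within experiment 1. At an adjusted p of 0.05, no ligand passed for NAM with limma as first fitted. In AT3 tumors 2 passed with the replicate block, where 1296 of 19281 genes did. There 6 passed without untreated tumor 2 (2520 of 18933 genes) and 3 without NAM-treated tumor 1 (2498 of 19301 genes). With DESeq2 1 passed in each model, where 2047 of 19281 genes did in AT3 and 179 of 21700 in M/D-driven tumors. Deviations of same-numbered tumors from their group means correlated at −0.44 to 0.11 in M/D-driven and −0.16 to 0.26 in AT3 tumors, so the numbers were not taken as a pairing, and the replicate block stands as an alternative. With 4 or 3 tumors per group, low counts such as those of *Ccl28* and *Cxcl3* in M/D-driven tumors and of *Cxcl15* and *Cxcl17* in AT3 tumors limit the precision of their differences.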
